A study of Homo sapiens with 4 samples.

Results

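Integrin subunits are the 10 genes ITGA2, ITGA3, ITGA5, ITGA6, ITGAV, ITGB1, ITGB4, ITGB5, ITGB6 and ITGB8, chosen by name and matched by gene symbol to 10 of the 29209 genes listed in each library. The cells were HaCaT, a spontaneously immortalised human keratinocyte line. A line transduced with lentivirus to overexpress TCN1, the gene of a secreted protein that binds vitamin B12, was compared with a negative control line, each with 2 polyA RNA-seq libraries (TCN1_OE and NC). RNA was taken after 48 hours, and the labels do not say whether the overexpressing line is 1 clone or a pool, what the control virus carried, or whether the libraries of a line came from separate cultures. P-values therefore reflect the variation among the 4 libraries alone, and that variation may be technical.

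Integrins are cell surface receptors made of 1 alpha and 1 beta subunit, and the pairing sets the ligand. In basal keratinocytes ITGA6 with ITGB4 anchors the cell to laminin of the basement membrane through hemidesmosomes, and ITGB1 pairs with ITGA2 to bind collagen, with ITGA3 to bind laminin and with ITGA5 to bind fibronectin. The pairs of ITGAV include those with ITGB5, ITGB6 and ITGB8. Of these pairs the ITGB5 form is known as a vitronectin receptor, the ITGB6 form as an epithelial receptor induced in wounds, and both the ITGB6 and ITGB8 forms as activators of latent TGF-beta.

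The libraries held between 11593377 and 19973550 counts, with 22186 to 24711 genes at 1 count or more. TCN1 itself had 50 and 17 counts in NC and 1700 and 1253 in TCN1_OE, as the labels have it. The keratinocyte markers KRT5 and KRT14 stood at 2125 ± 120 and 3250 ± 217 FPKM in NC (SD, n = 2), and all 10 keratinocyte markers were tested. Summed marker levels of fibroblasts, melanocytes, leukocytes and endothelium stayed at or under 3.43 FPKM in every library, led by COL1A1, MITF, CD14 and VWF at 1.86, 1.41, 2.27 and 0.937 FPKM in NC. In bulk RNA, fewer cells of a type and less RNA per cell cannot be told apart. Mitochondrially encoded genes took 5.13% to 5.33% of the counts in NC and 5.65% to 6.04% in TCN1_OE, and their part in the results below was not tested.

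None of the 10 integrin subunits passed the test between TCN1_OE and NC, while 75 of 15113 genes did (0.496%, edgeR quasi-likelihood test, Benjamini-Hochberg adjusted p under 0.05). DESeq2, which called 1.75% of the genes it adjusted, and limma on log2(FPKM + 0.5), which called 0.00872%, also called 0 of the 10. These fits had the line as their only term. A fit with the replicate number as a block did call subunits, and is given in the closing section because the labels state no pairing. At an unadjusted p under 0.05, edgeR had 2 of the 10, ITGB6 and ITGB8, both higher in TCN1_OE, where 12.8% of all genes tested reached it and 6.0% did so on the higher side. The log2 fold change was positive for 5 subunits and negative for 5. Their median was 0.03, beside 0.0016 over all genes tested, and the median size without sign was 0.13 beside 0.17. The 95% intervals excluded a 1.5-fold change in either direction for 9 of the 10, the exception being ITGA5. ITGB6 was only just among the 9, with an upper end of 1.49-fold at a log2 fold change of 0.35. That value was 0.38 ± 0.11 (SE) with upper-quartile factors and 0.37 ± 0.10 among genes of at least 1 FPKM. DESeq2 gave 0.35 ± 0.13, beside an SE of 0.10 in the fit used for the intervals. The count of 9 was not repeated under those settings, where ITGB6 may fall outside it. The 95% intervals rest on a spread that edgeR shares across genes. Separately, an exact two-sided permutation test of 2 against 2 libraries cannot go below a p of 0.33.

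**Figure D1:**
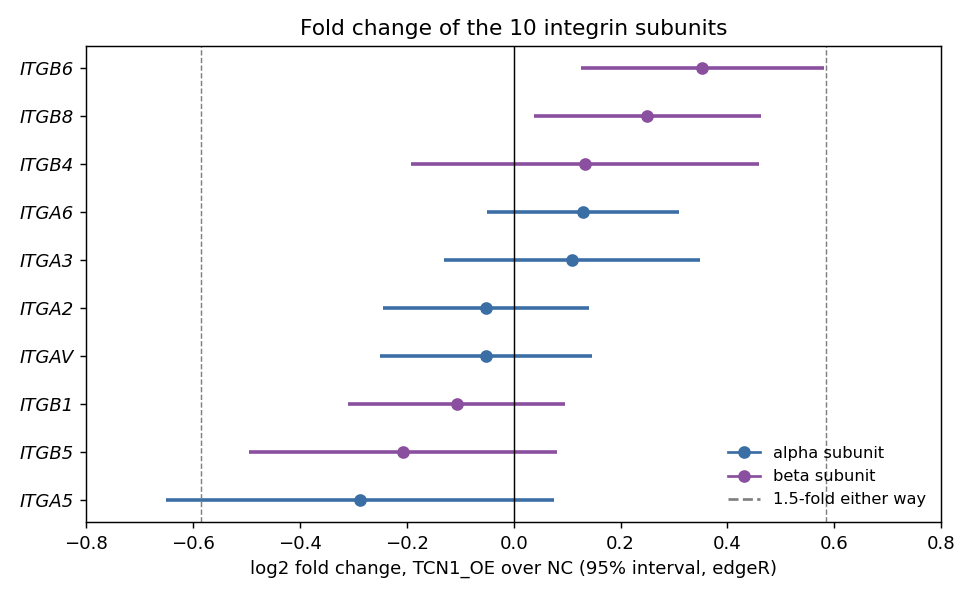
Log2 fold change of TCN1_OE over NC for each subunit (x axis, point) with its 95% interval from edgeR (horizontal line); blue marks alpha and purple beta subunits, and dashed lines mark 1.5-fold either way. ITGB6 at 0.35 and ITGB8 at 0.25 lie to the right of 0 with their intervals, while the intervals of the other 8 subunits cross 0 and that of ITGA5 reaches past the left dashed line.

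Of the beta partners of ITGAV named above, ITGB6 and ITGB8 had positive and ITGB5 a negative fold change, and none of them passed edgeR. ITGB6 (ENSG00000115221, GRCh38 chromosome 2, 160099666 to 160200313, minus strand) stood at 13.6 and 12.6 FPKM in NC and at 18.0 and 15.6 FPKM in TCN1_OE. FPKM divides a gene's count by its length and by the library's total, so levels of different genes can be set side by side. Both TCN1_OE libraries lay above both NC libraries, with counts of 1900 and 1025 against 2086 and 1616. The log2 fold change was 0.35 ± 0.10 (SE), or 1.28-fold with a 95% interval of 1.09 to 1.49, and the edgeR adjusted p was 0.182. In GENCODE 29, 20.6% of the exonic bases of ITGB6 lie under another gene on the same strand. ITGB8 (ENSG00000105855, chromosome 7, 20330702 to 20415754, plus strand) stood at 6.63 and 6.36 FPKM in NC and at 8.12 and 7.37 FPKM in TCN1_OE. The groups again did not overlap, and the log2 fold change was 0.25 ± 0.09, or 1.19-fold with an interval of 1.03 to 1.38 and an edgeR adjusted p of 0.302.

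ITGB5 (ENSG00000082781, chromosome 3, 124761948 to 124901418, minus strand), the vitronectin receptor subunit, stood at 15.1 and 17.8 FPKM in NC and at 12.8 and 15.7 FPKM in TCN1_OE. NC replicate 1 lay between the 2 TCN1_OE libraries, so the groups overlapped, and the log2 fold change was -0.21 ± 0.13 with an interval of -0.50 to 0.08. It was -0.062 without TCN1_OE replicate 1, -0.081 without NC replicate 2 and -0.37 without TCN1_OE replicate 2. ITGAV (ENSG00000138448, chromosome 2, 186590065 to 186680901, plus strand), the alpha subunit that all 3 of these beta chains bind, stood at 10.8 and 9.93 FPKM in NC and at 10.4 and 9.62 FPKM in TCN1_OE. Its libraries were interleaved, and the log2 fold change was -0.05 ± 0.09, its interval running from -0.25 to 0.15, that is 0.84-fold to 1.11-fold. The summed FPKM of ITGB5, ITGB6 and ITGB8 was 35.3 and 36.7 in NC and 38.9 and 38.7 in TCN1_OE.

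Ratios between subunits within a library do not depend on the scaling between libraries, and those given here were chosen after the values were seen. The ratio of ITGB6 to ITGB5 in FPKM was 0.901 and 0.711 in NC and 1.40 and 0.999 in TCN1_OE. That of ITGB8 to ITGB5 was 0.440 and 0.358 in NC and 0.634 and 0.471 in TCN1_OE. Both ratios lay higher in each TCN1_OE library than in either NC library, and the nearest libraries stood at 0.999 and 0.901 in the first and at 0.471 and 0.440 in the second. With 2 libraries a group the exact permutation test cannot go below a p of 0.33, so these ratios are a description. With the exonic lengths of GENCODE 29 the ratio of ITGB6 to ITGB5 was 1.33 and 1.05 in NC and 2.07 and 1.48 in TCN1_OE. Another length multiplies the ratio by the same factor in every library. The ratio of ITGA6 to ITGB4 was 2.05 and 1.53 in NC and 2.09 and 1.49 in TCN1_OE, so its groups overlapped and the replicate numbers stood further apart than the lines.

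**Figure D2:**
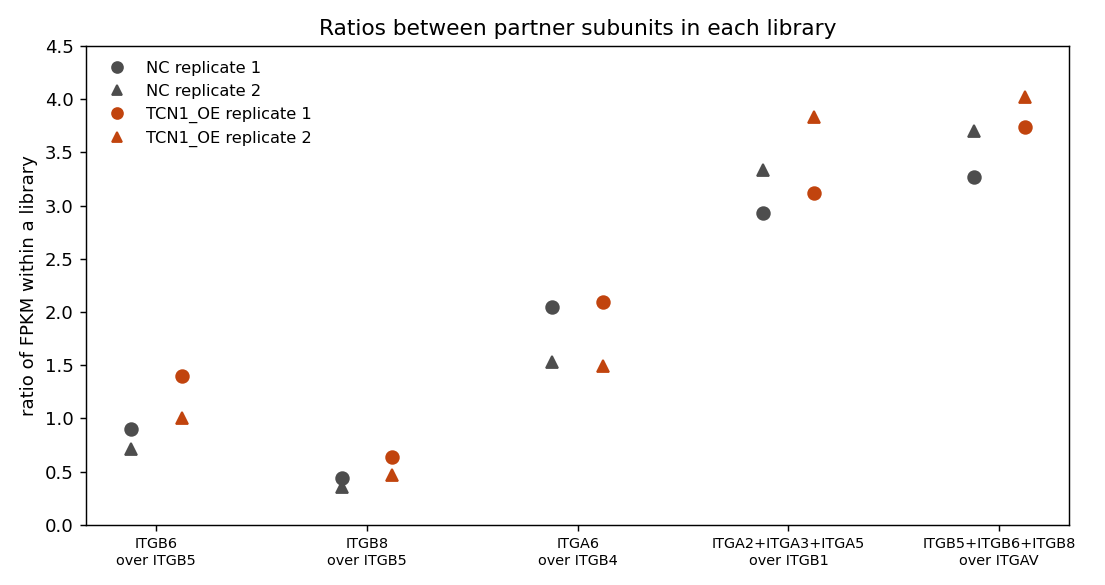
Ratio of FPKM between subunits within each library (y axis, starting at 0). NC is in grey and TCN1_OE in orange, with circles for replicate 1 and triangles for replicate 2. The ratios of ITGB6 and of ITGB8 to ITGB5 are higher in both TCN1_OE libraries, while ITGA6 over ITGB4 separates the replicate numbers, near 2.05 and 2.09 for replicate 1 and 1.53 and 1.49 for replicate 2.

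The laminin-binding pair of the hemidesmosome held the highest levels. ITGA6 (ENSG00000091409, chromosome 2, 172427354 to 172506282, plus strand) stood at 209.5 and 198.6 FPKM in NC and at 231.8 and 215.8 FPKM in TCN1_OE, above 99.4% of the genes tested. The TCN1_OE libraries lay above the NC libraries, and the log2 fold change was 0.13 ± 0.08, its interval running from -0.05 to 0.31 (edgeR adjusted p 0.554). ITGB4 (ENSG00000132470, chromosome 17, 75721328 to 75757818, plus strand) stood at 102.3 and 130.03 FPKM in NC and at 110.9 and 144.4 FPKM in TCN1_OE. In both lines the library numbered 2 was the higher, the groups overlapped, and the log2 fold change was 0.13 ± 0.15. The sign of ITGB4 turned without NC replicate 1, at -0.037, and without TCN1_OE replicate 2, at -0.086.

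No subunit of the ITGB1 group passed, and the intervals of ITGB1, ITGA2 and ITGA3 excluded a 1.5-fold change either way. ITGB1 (ENSG00000150093, chromosome 10, 32900319 to 33005792, minus strand) stood at 28.9 and 26.7 FPKM in NC and at 27.6 and 24.2 FPKM in TCN1_OE, a log2 fold change of -0.11 ± 0.09. ITGA2 (chromosome 5, 52989326 to 53094779), the collagen receptor chain, stood at 33.7 and 31.3 FPKM in NC and at 32.6 and 30.3 FPKM in TCN1_OE. Its groups overlapped, and the log2 fold change was -0.05 ± 0.09, its interval running from -0.25 to 0.14. ITGA3 (chromosome 17, 50055968 to 50090481), the laminin receptor chain, stood at 48.6 and 55.3 FPKM in NC and at 51.8 and 60.4 FPKM in TCN1_OE, a log2 fold change of 0.11 ± 0.11 that was -0.023 without TCN1_OE replicate 2. ITGA5 (chromosome 12, 54395261 to 54419460), the fibronectin receptor chain, was the lowest of the 10 at 2.42 and 2.44 FPKM in NC against 1.84 and 2.16 FPKM in TCN1_OE. Its counts were 357 and 209 against 225 and 235. Both TCN1_OE libraries lay below both NC libraries, but the log2 fold change of -0.29 ± 0.16 had an interval of -0.65 to 0.08 and an edgeR adjusted p of 0.502.

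Over the 10 subunits, FPKM did not overlap between the lines for 4, of which ITGA6, ITGB6 and ITGB8 were higher and ITGA5 lower in TCN1_OE. Of all genes tested, 42.7% did not overlap, with 21.7% higher and 21.0% lower in TCN1_OE. The share among integrins is near that background.

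The order of the subunits by level was ITGA6, ITGB4, ITGA3, ITGA2, ITGB1, ITGB5, ITGB6, ITGAV, ITGB8 and ITGA5, with means over the 4 libraries from 213.9 down to 2.21 FPKM. Of the 9 pairs of neighbours, 8 kept this order without any overlap between their libraries. The exception was ITGB5 and ITGB6, at 15.3 and 15.0 FPKM, where ITGB6 was the higher in TCN1_OE replicate 1 and the lower in the other 3 libraries. The 8 subunits from ITGA6 to ITGAV lay above at least 72.7% of the genes tested, ITGB8 above 64.1% and ITGA5 above 38.9%, and the median gene stood at 3.92 FPKM.

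**Figure D3:**
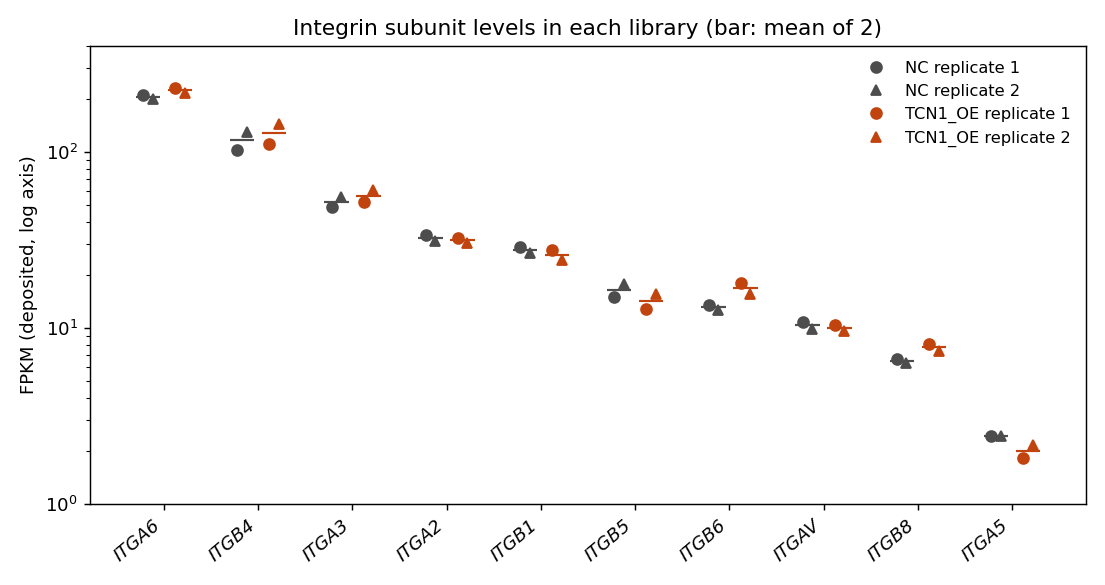
Deposited FPKM of each subunit in each library on a log axis, ordered by mean, with NC in grey and TCN1_OE in orange, circles for replicate 1, triangles for replicate 2 and a short bar at the mean of each line. Levels run from 231.8 FPKM for ITGA6 to 1.84 FPKM for ITGA5, and the libraries of ITGB5 and ITGB6 are the only neighbours that overlap.

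This order depends on the gene length behind the deposited FPKM. For ITGAV that length was 19336 bp, against 8211 exonic bp in GENCODE 29, and for ITGB1 it was 14561 against 6011 bp, ratios of 2.35 and 2.42. For ITGB6 it was 7002 against 4687 bp, a ratio of 1.49, and for the other 7 subunits the ratio lay between 0.974 and 1.09. With the GENCODE 29 lengths ITGB1 stood at 67.4 ± 3.80 FPKM in NC and ranked the third, above ITGA3 at 51.9 ± 4.75 FPKM. ITGAV then stood at 24.4 ± 1.44 and ITGB6 at 19.6 ± 1.01 FPKM in NC, both above ITGB5 at 16.6 ± 1.91 FPKM. Fold changes between the lines do not use the length.

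Shares put the same levels on a scale within a library. Of the summed alpha FPKM, ITGA6 took 68.7% and 66.7% in NC and 70.6% and 67.8% in TCN1_OE. ITGA3 took 15.9% to 19.0% over the 4 libraries, ITGA2 9.51% to 11.05%, ITGAV 3.02% to 3.54% and ITGA5 0.559% to 0.820%. Among the alpha chains, ITGA2, ITGA5 and ITGAV each had a lower share in both TCN1_OE libraries than in either NC library. The FPKM of ITGA2 and ITGAV overlapped between the lines. The alpha sum itself, most of it ITGA6, was 305.0 and 297.6 FPKM in NC and 328.5 and 318.3 FPKM in TCN1_OE. These lower shares thus depend on the sum, and no background over all genes was taken for shares. Of the summed beta FPKM, ITGB4 took 61.4% and 67.2% in NC and 62.5% and 69.7% in TCN1_OE. ITGB5 took 9.05% and 9.18% in NC and 7.22% and 7.55% in TCN1_OE, so its share did not overlap between the lines although its FPKM did. The beta sum itself, most of it ITGB4, was 166.55 and 193.5 FPKM in NC and 177.5 and 207.3 FPKM in TCN1_OE. The share of ITGB5 thus depends on that sum too. ITGB1 took 11.7% to 17.4%, ITGB6 6.53% to 10.1% and ITGB8 3.29% to 4.58%, each with overlapping lines. With the GENCODE 29 lengths ITGB1 took 23.5% to 32.7% of the beta sum and ITGAV 6.47% to 7.53% of the alpha sum.

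For several subunits the libraries of 1 line differed by more than the lines did. Log2 CPM was set against the same line's library numbered 1, with CPM the counts scaled to library size after TMM. In the libraries numbered 2, ITGB4 lay higher by 0.36 in NC and 0.40 in TCN1_OE, ITGB5 by 0.25 and 0.31, and ITGA3 by 0.20 and 0.24. ITGA5 differed by 0.03 and 0.25. The other 6 subunits lay lower, among them ITGB6 at -0.09 and -0.18 and ITGB1 at -0.10 and -0.17. All 10 subunits moved the same way between the replicate numbers in both lines, as did 66.9% of all genes tested. For 5 of them, ITGA2, ITGA3, ITGAV, ITGB4 and ITGB5, the smaller of the replicate differences exceeded the larger of the differences between lines, which held for 20.1% of all genes tested. All 10 also had the same sign between the lines at both replicate numbers, as did 68.3% of all genes tested. ITGB6, for example, was higher in TCN1_OE by 0.40 between the libraries numbered 1 and by 0.31 between those numbered 2.

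**Figure D4:**
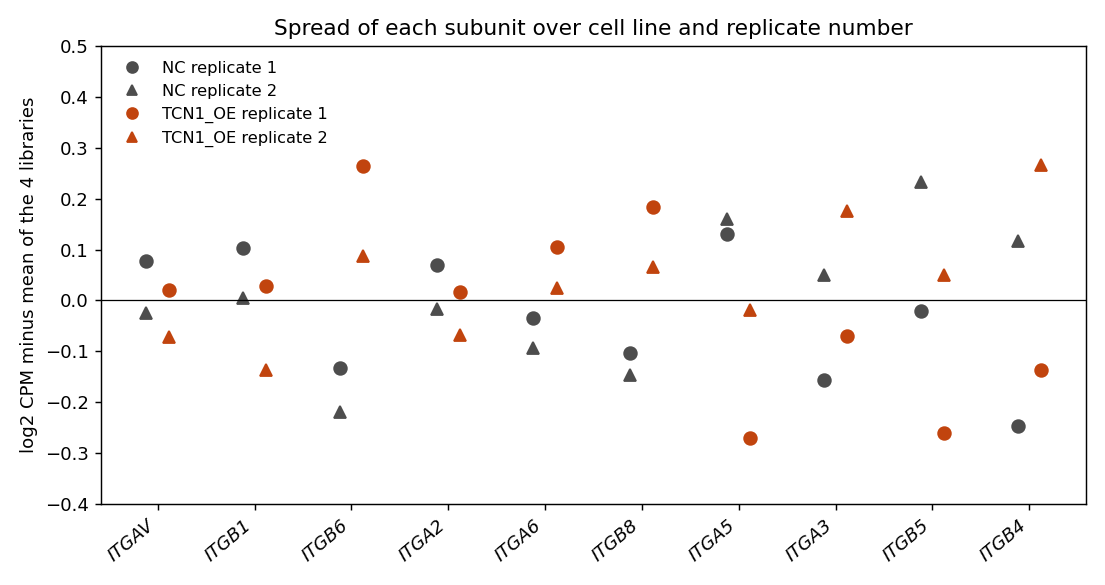
Log2 CPM of each subunit in each library minus its mean over the 4 libraries (y axis), with NC in grey and TCN1_OE in orange, circles for replicate 1 and triangles for replicate 2. Triangles lie above circles of the same colour for ITGA5, ITGA3, ITGB5 and ITGB4 and below them for the other 6 subunits, while colours separate for ITGB6, ITGB8, ITGA6 and ITGA5.

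The remaining integrin genes stood at 3.70 FPKM or less in every library, and the highest of them, ITGAE, lay above the member ITGA5 in each. Of 15 others listed in the files, 8 could be tested and 0 passed edgeR, with 2 at an unadjusted p under 0.05. ITGAE, which pairs with ITGB7 to bind E-cadherin, stood at 3.66 and 3.70 FPKM in NC and at 2.97 and 2.56 FPKM in TCN1_OE, a log2 fold change of -0.42 ± 0.14 with an edgeR adjusted p of 0.251. ITGA4 stood at 2.04 and 2.12 FPKM in NC and at 1.41 and 1.63 FPKM in TCN1_OE, or -0.45 ± 0.15 with an edgeR adjusted p of 0.245. ITGB7 and ITGA1 stood at 1.59 ± 0.12 and 0.582 ± 0.132 FPKM in NC and at 0.18 ± 0.20 and -0.27 ± 0.21 on the log2 fold change scale. ITGB2, the beta chain of leukocyte integrins, had 3, 1, 0 and 8 counts, and ITGB3 had 1 count in 1 library.

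Around the subunits, 125 tested genes of the adhesion machinery were counted in 8 lists, which were chosen with earlier results of these data known. Because of that choice, no share of a list is an independent comparison with all genes. By edgeR 0 were higher and 2 lower in TCN1_OE, or 1.6% beside 0.496% of all genes tested. At an unadjusted p under 0.05 there were 25 of the 125, where 12.8% of all genes tested reached it, and the counts at that level given below for each list stand beside the same background. Their median log2 fold change was 0.01, with 65 positive and 60 negative. Both of those that fell were ligands. FN1, the fibronectin that ITGA5 with ITGB1 and ITGAV with ITGB6 bind, fell from 12.3 and 13.2 FPKM to 8.45 and 8.93 FPKM, a log2 fold change of -0.55 ± 0.09 with an edgeR adjusted p of 0.0431. THBS1, a matricellular ligand, fell from 31.5 and 32.3 FPKM to 20.2 and 20.05 FPKM, or by 0.67 on the log2 scale, with an edgeR adjusted p of 0.0118. Limma on log2(FPKM + 0.5) called neither, at adjusted p of 0.184 for FN1 and 0.116 for THBS1. Among genes of at least 1 FPKM, THBS1 passed edgeR at an adjusted p of 0.0134 and FN1 did not, at 0.05005.

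The rest of the 22 tested matrix ligands did not pass. Of the 22, 7 had an unadjusted p under 0.05, and the list's median was -0.0010 with 11 positive and 11 negative. Laminin chains had the highest levels in the list, with LAMB3 at 0.17 ± 0.11, LAMA5 at 0.30 ± 0.15 and LAMC1 at 0.01 ± 0.08 on the log2 fold change scale. Of 6 hemidesmosome partners 0 passed edgeR and 2 had an unadjusted p under 0.05, with 5 positive values and a median of 0.16. KRT15, a basal keratin, stood at 711.5 ± 62.8 FPKM in NC against 1007 ± 44.7 FPKM in TCN1_OE, a log2 fold change of 0.50 ± 0.09 with an edgeR adjusted p of 0.0540. COL17A1, KRT5 and KRT14 stood at 0.20 ± 0.10, 0.13 ± 0.09 and 0.04 ± 0.10.

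Inside the cell, 0 of 19 linkers and activators passed edgeR, 4 had an unadjusted p under 0.05, and the median was -0.0035. The tensin TNS4 stood at 0.11 ± 0.10, the linkers VCL and TLN1 at -0.11 ± 0.08 and -0.09 ± 0.10, and TNS3 at 0.06 ± 0.10. Among 22 genes of adhesion signalling 0 passed edgeR and 3 had an unadjusted p under 0.05. CAV1, the coat protein of caveolae, stood at 170.8 and 162.8 FPKM in NC and at 131.4 and 123.4 FPKM in TCN1_OE, a log2 fold change of -0.39 ± 0.08 with an edgeR adjusted p of 0.0739. RAC1, CRKL and GIT1 stood at 0.05 ± 0.09, -0.15 ± 0.09 and 0.02 ± 0.12.

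Of 16 genes that hold integrins inactive or carry them through endosomes 0 passed edgeR and 1 had an unadjusted p under 0.05. That gene was FLNA, an actin crosslinker that competes with talin for beta chain tails, at 107.95 and 134.96 FPKM in NC against 77.2 and 96.2 FPKM in TCN1_OE, a log2 fold change of -0.49 ± 0.13 with an edgeR adjusted p of 0.161. RAB25, RAB11A and CLTC, which act in endocytosis and recycling, stood at 0.19 ± 0.09, 0.13 ± 0.10 and -0.06 ± 0.08. Of 16 membrane partners 0 passed edgeR and 4 had an unadjusted p under 0.05, with 10 positive values and a median of 0.08. BSG, SDC1, SDC4 and SLC3A2 stood at -0.00080 ± 0.12, 0.24 ± 0.11, 0.12 ± 0.08 and -0.22 ± 0.10.

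The latent TGF-beta axis, on which the ITGB6 and ITGB8 receptors act, had 0 of 16 genes past edgeR and 2 at an unadjusted p under 0.05, with 7 positive and 9 negative values and a median of -0.04. TGFB1, the ligand itself, stood at 11.9 ± 2.44 FPKM in NC against 11.4 ± 1.83 FPKM in TCN1_OE. TGFBI, a secreted matrix protein induced by TGF-beta, stood at 103.1 and 104.2 FPKM in NC and at 85.4 and 83.5 FPKM in TCN1_OE, a log2 fold change of -0.30 ± 0.08 with an edgeR adjusted p of 0.148. SMAD3 and SMAD7, a transducer and an inhibitor of the pathway, stood at 0.12 ± 0.09 and 0.09 ± 0.15.

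**Figure D5:**
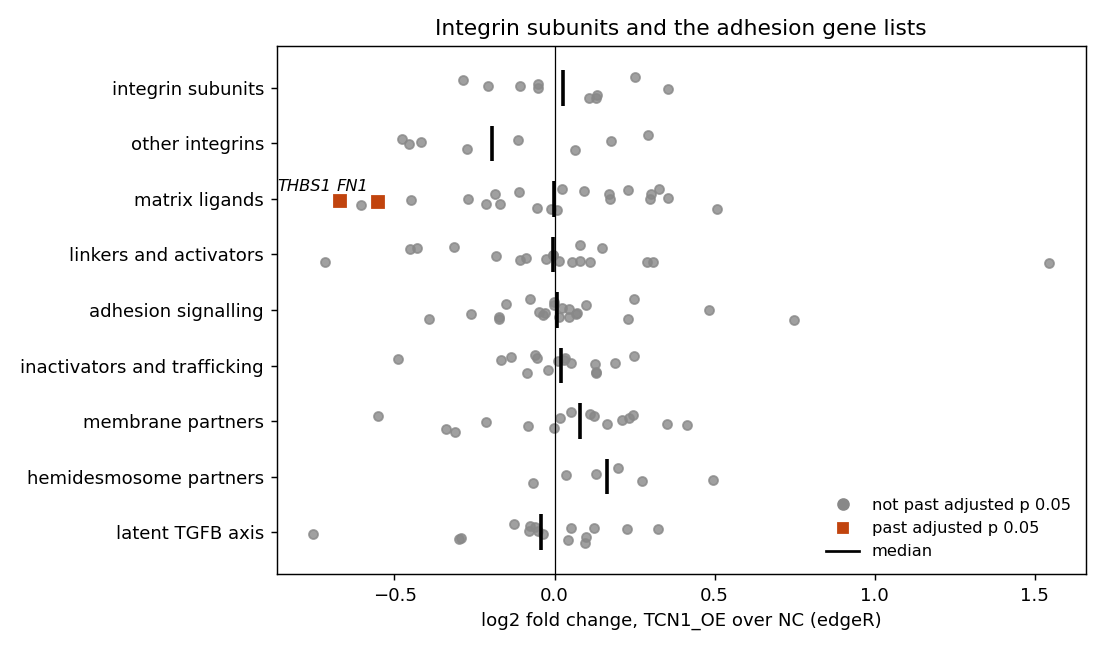
Log2 fold change of TCN1_OE over NC by edgeR (x axis) for each integrin subunit and each tested gene of the 8 adhesion lists, with a black bar at each list's median and orange squares for genes past an adjusted p of 0.05. THBS1 and FN1 are the squares, at -0.67 and -0.55, and the integrin subunits lie between -0.29 and 0.35.

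Among the 125 tested adhesion genes, those nearest to ITGB6 in their log2 CPM over the 4 libraries, after centring on the mean, were DST, TSPAN8 and LTBP2. Their Euclidean distances were 0.104, 0.156 and 0.180, where the median gene stood at 0.458. DST, which encodes a hemidesmosomal plakin, stood at 9.17 FPKM in NC against 11.1 FPKM in TCN1_OE on average. TSPAN8 and LTBP2 were lower, at 1.56 and 1.36 FPKM in NC, with log2 fold changes of 0.35 ± 0.25 and 0.32 ± 0.16. For ITGA6, the subunit with the highest level, the nearest were CD44, LTBP1 and SDC4, at 0.067, 0.068 and 0.075, with a median of 0.335. LTBP1 had a low level, at 0.395 FPKM in NC against 0.424 FPKM in TCN1_OE, and a log2 fold change of 0.10 ± 0.28. These distances describe 4 libraries that share depth and preparation, and no relation between the genes was tested.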

How the data were processed

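Per the labels' protocols, polyA RNA of HaCaT cells was sequenced after NEBNext Ultra library preparation, which does not mark strand. The submitters' processing notes name HISAT2, HTSeq 0.13.5 and the build GRCh38. The gene annotation behind the counts, and how strand and multi-mapping reads were handled, were not given in the sources used here. Each deposited file holds a raw count and an FPKM per gene and library, per the file headers. The deposited FPKM gave a whole gene length in 100% of values above 0, within 1e-04 bp.

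Counts were tested with edgeR 4.0.16 in R 4.3.3 (quasi-likelihood, TMM, filterByExpr with a minimum count of 10, group as the only term, all 4 libraries), which kept 15113 genes and all 10 integrin subunits. Adjustment was over all genes tested. SE is the log2 fold change divided by the square root of F. The step was tested on simulated data. Alternatives used DESeq2 1.42.0, limma 3.58.1, other scalings and filters, a replicate block and each library left out. Gene lengths of GENCODE 29 were tried after seeing the data. Members and lists were chosen with earlier results of these data known. Named genes are all members, the 4 with the highest mean FPKM of each list and every list gene past the threshold, the 3 nearest to ITGB6 and to ITGA6, and others said to be chosen later. Of the adhesion lists, 6 genes were not analysed here. A list gene that the rule names is not reported here.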

Additional observations from a re-analysis of the deposited data

How the results depend on the processing

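Integrin subunits called by adjusted p numbered 0 in all alternatives run except the replicate block, and ITGB6 stayed between 0.26 and 0.43 and ITGB8 between 0.19 and 0.30 on the log2 scale. With the replicate number as a block, edgeR called 5 subunits higher and 2 lower, where 19.0% of all genes were called (1216 higher, 1655 lower, and 49 adhesion list genes). ITGB6 then had an adjusted p of 6.6e-07 at 0.36, and ITGA2, ITGA5 and ITGAV were the subunits not called. The labels do not say that a number marks a shared culture or day, so the pairing rests on the numbers alone. Deviations of same-numbered libraries correlated at 0.150 over 15113 genes, and 66.9% of genes tested moved the same way between replicate numbers in both lines. With so few libraries a line, these values do not settle whether the numbers pair the libraries.

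Beside 43 higher, 32 lower and 2 adhesion list genes, DESeq2 called 95, 109 and 8, upper-quartile factors 78, 53 and 4, and no filter 200, 275 and 10. Genes of at least 1 FPKM gave 14 lower and 1 adhesion list gene. Limma at each pseudocount called 1 higher, 0 lower and 0 adhesion list genes, against 715, 750 and 18 at an unadjusted p under 0.05 with log2(FPKM + 0.5). Leaving out 1 library gave 104 to 188 higher, 106 to 142 lower and 4 to 7 adhesion list genes, the cause of which was not tested. Over these fits ITGB4 ran from -0.086 (without TCN1_OE replicate 2) to 0.32, with -0.037 without NC replicate 1, ITGA3 from -0.023 (without TCN1_OE replicate 2) to 0.22, and ITGAV from -0.11 to 0.00067 (without NC replicate 1). The share difference of ITGAV, -0.34 points, was -0.77 by counts and -0.71 with GENCODE 29 lengths, and that of ITGB5, -1.73 points, was -1.28 in both. ITGA5 had 209 to 357 counts and an SE of 0.16, and ITGB4, with 10192 to 14409 counts, an SE of 0.15.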

Other observations

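Near-copies and antisense genes of the subunits took few counts. ITGB1P1, a pseudogene copy of ITGB1, had 244 and 123 counts in NC and 183 and 158 in TCN1_OE, between 2.73% and 3.03% of the ITGB1 count. In FPKM, which divides by gene length, it was not low. It stood at 20.1 and 17.4 FPKM in NC and at 18.1 and 17.6 FPKM in TCN1_OE. ITGB1 stood at 28.9 and 26.7 FPKM in NC and at 27.6 and 24.2 FPKM in TCN1_OE. How reads shared by ITGB1 and this copy were counted is not given in the sources used here, and such reads were not measured. On the log2 fold change scale ITGB1P1 stood at -0.08 ± 0.18 (edgeR adjusted p 0.8998). ITGA6-AS1, antisense to ITGA6, had 161 and 97 counts in NC and 195 and 136 in TCN1_OE, at most 0.715% of the ITGA6 count. ITGB8-AS1 had between 1.70% and 2.84% of the ITGB8 count. The libraries do not mark strand, so reads where such genes overlap a subunit cannot be told apart.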
